A study of Homo sapiens with 48 samples.

Results

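HEK293T cells in which HNE had been delivered to NCBP1 by T-REX were compared with DMSO-treated cells 12 h later, over all 14685 genes of the deposited count table. The members are the 4 T-REX libraries and the 4 DMSO libraries of that time point, 8 of the 48 libraries of the series. HEK293T is a transformed human embryonic kidney line, given here without a genome edit, and all cells of the series were transfected with a plasmid that expresses NCBP1 fused to Halo, a protein tag that binds chloroalkane ligands covalently. In the T-REX arm the cells received Ht-PreHNE(alkyne), a photocaged precursor of the electrophile HNE (4-hydroxynonenal) that attaches to Halo, were rinsed, and were then exposed to light, which releases HNE beside the fused protein. The DMSO arm received solvent without probe and without light, so that T-REX and DMSO differ in probe, light and released HNE together. Light alone and probe alone, with 4 libraries each at 12 h, enter the fit and are given beside the main values. The study's methods list both probe and light for the arm named light alone, and how it differed from T-REX is not given in the sources used here. The replicates are described as independent biological replicates of a transfected population, in which the share of cells that took up the plasmid is not recorded here.

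HNE is a product of lipid peroxidation that reacts with cysteines and other nucleophilic residues. NCBP1, the larger partner in the nuclear cap-binding complex, holds, together with NCBP2, the cap of newly made transcripts and links them to splicing, export and decay. Cells meet shortage of amino acids, endoplasmic reticulum stress and oxidants in part through kinases that phosphorylate eIF2, after which the transcription factor ATF4 raises genes of amino acid uptake and synthesis and the aminoacyl-tRNA synthetases. Low oxygen acts through the prolyl hydroxylases EGLN1 to EGLN3, which mark HIF subunits for removal. When the hydroxylases are idle, HIF raises glucose uptake, glycolysis and the removal of mitochondria. In bulk RNA a lower level can come from fewer cells of a kind or from less RNA in each cell, and these cannot be told apart.

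The 8 libraries held 26799819 to 37099535 counts with T-REX and 26871718 to 30593868 with DMSO. The 7 genes listed as known for HEK293T cells were all measured, while 0 of 6 blood genes, 0 of 5 endothelial genes and 1 of 5 fibroblast genes (COL1A1, 3.43 to 4.97 CPM with T-REX and 3.43 to 5.27 CPM with DMSO) were in the table. Summed over the 7 genes, the CPM ran from 1006 to 1034 with T-REX and from 988 to 1111 with DMSO, and 3 of the 7 were called lower (1 without T-REX replicate 1 or 3). The DMSO libraries were the most scattered of the 4 arms at 12 h. The median SD of a gene's log2 CPM (reads of a gene scaled to a common library total, with TMM factors) was 0.143 over the DMSO libraries, against 0.0780 for T-REX, 0.0874 for probe alone and 0.0743 for light alone. DMSO replicate 3 lay farthest from its group mean, with a root mean square deviation of 0.212 on the log2 scale, followed by DMSO replicate 1 with 0.168, and the T-REX libraries lay between 0.0878 and 0.100. Both DMSO libraries deviated along GC content in opposite directions (Spearman's rho of the deviation with GC over 12568 genes 0.652 for replicate 1 and -0.590 for replicate 3, a description across genes of 1 library each). Counts of calls are therefore also given without these 2 libraries.

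At a Benjamini-Hochberg adjusted p of at most 0.05 in the quasi-likelihood test of edgeR, 1598 genes were called, which is 10.9% of the genes tested. Of these, 601 were higher with T-REX (4.09%) and 997 were lower (6.79%). The differences were small, with a median size of 0.31 on the log2 scale. A log2 fold change of at least 1 in size was found for 32 called genes and of at least 0.5 for 288. In 887 genes (6.04%) every T-REX library lay above every DMSO library, and in 1094 genes (7.45%) every one lay below. Leaving out DMSO replicates 1 and 3 left 636 calls, 582 of them among the 1598, and fitting only the T-REX and DMSO libraries left 366, all of them among the 1598. The count was 795, 984 or 1016 without T-REX replicate 1, 3 or 4, and without DMSO replicate 4 it was 2655. A set of 641 genes, 203 higher and 438 lower, was called without each of the 8 libraries in turn.

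**Figure D1:**
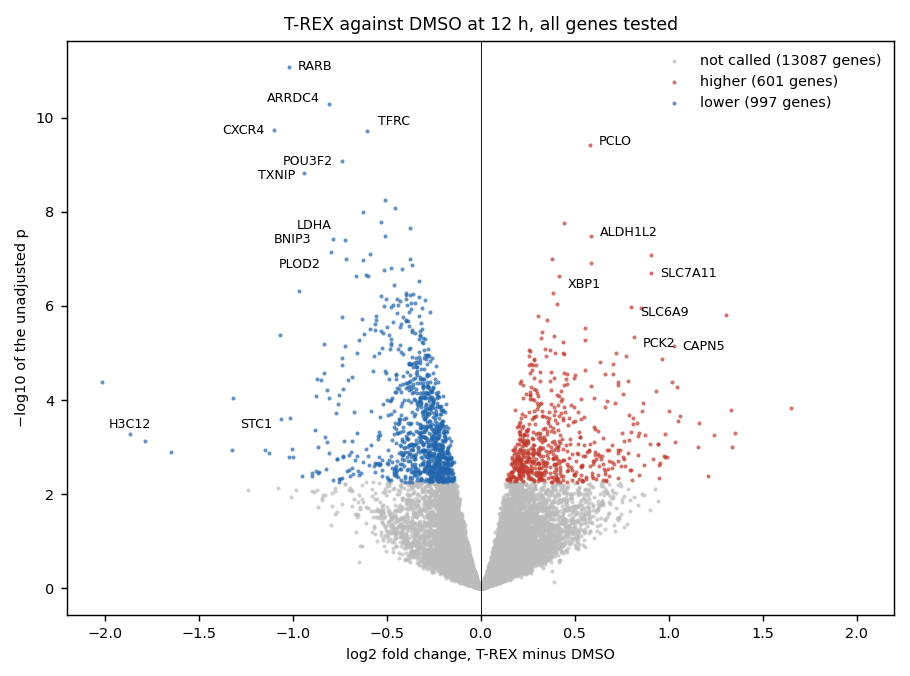
Log2 fold change (T-REX minus DMSO, 12 h, horizontal axis) and −log10 of the unadjusted p (vertical axis) of every gene tested, with the 601 genes called higher in red and the 997 called lower in blue. The smallest p-values belong to lower genes, led by RARB, ARRDC4, CXCR4 and TFRC, and to PCLO among the higher genes, and most called genes lie within 0.5 of 0.

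NCBP1 (ENSG00000136937), the targeted gene, was read first. It stood at 60748, 55582, 53460.0 and 65388 CPM in T-REX replicates 1 to 4 and at 31488, 36541, 32400.0 and 41334 CPM in DMSO replicates 1 to 4, without overlap. These counts join the plasmid's coding sequence with the endogenous gene. The difference was 0.73 on the log2 scale (standard error 0.13, edgeR adjusted p = 0.00252), and without DMSO replicates 1 and 3 it was 0.59 and no longer called (edgeR adjusted p = 0.0971). Probe alone held 54596, 57872, 54206 and 75762 CPM and light alone 35301, 43365, 36488 and 50254 CPM. NCBP1 was thus at a like level in the 2 arms given as probe alone and T-REX (T-REX minus probe alone -0.04, edgeR adjusted p = 0.942), and the part of this difference in level in any result below was not tested. NCBP2, the small subunit, stood at 26.5 ± 1.69 CPM with T-REX and 29.5 ± 2.05 CPM with DMSO (mean ± SD, n = 4, log2 fold change -0.15, edgeR adjusted p = 0.211). NCBP1 was the 1 gene called among 20 genes of the cap-binding complex and its partners (2 higher and 2 lower without DMSO replicate 4), whose median log2 fold change was 0.0020. That is 5.0% called, below the 10.9% of all genes tested.

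In the ATF4 branch most of the called genes were higher with T-REX, and many members were not called. Among the 22 measured regulators of the integrated stress response, 8 were called higher and 1 lower, with a median log2 fold change of 0.20 beside 0.0031 for all genes. Among 18 genes of amino acid and folate-linked synthesis 8 were higher and 0 lower (median 0.28), and among 12 amino acid transporters 7 were higher and 0 lower (median 0.33). Called cytosolic aminoacyl-tRNA synthetases numbered 8 higher and 2 lower of 20, and 0 of the 16 measured mitochondrial ones were called (median -0.05), against 2 higher without DMSO replicate 4. Without DMSO replicates 1 and 3 the counts of higher genes in the regulators, synthesis genes, transporters and cytosolic synthetases were 5, 6, 8 and 6, and in a fit of these 2 arms alone 3, 5, 4 and 4. Without T-REX replicate 1 they were 4, 6, 5 and 5.

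SLC7A11 (ENSG00000151012) imports cystine in exchange for glutamate and so feeds glutathione synthesis. It stood at 158, 135, 126 and 130.0 CPM in T-REX replicates 1 to 4 and at 64.0, 66.0, 80.8 and 83.1 CPM in the DMSO replicates. Every T-REX library lay above the highest DMSO library, by a log2 fold change of 0.90 (standard error 0.11, edgeR adjusted p = 9.79e-05), and the gene was called in 25 of 25 alternatives. SLC6A9 (ENSG00000196517), a glycine transporter, held 20.6, 17.4, 16.8 and 17.8 CPM with T-REX and 14.0, 9.24, 8.39 and 10.1 CPM with DMSO. Its arms did not overlap either, with DMSO replicate 1 the nearest (0.80, standard error 0.12, edgeR adjusted p = 0.000266). SLC1A4, a carrier of alanine, serine and cysteine, held 41.8, 42.1, 38.3 and 38.8 CPM with T-REX and 25.3, 29.3, 23.3 and 29.2 CPM with DMSO (0.59, edgeR adjusted p = 7.02e-05). The remaining called transporters moved less, and their log2 fold changes were 0.37 for SLC3A2, the heavy chain that SLC7A11 and SLC7A5 need at the membrane, 0.35 for SLC7A5, a carrier of large neutral amino acids, 0.33 for SLC7A1, which carries arginine and lysine, and 0.21 for SLC38A1, a glutamine carrier. SLC7A5 was not called without DMSO replicate 3 or T-REX replicate 1 or 4 (edgeR adjusted p = 0.0887, 0.0565 and 0.0676), and SLC38A1 was not called without T-REX replicate 1 (edgeR adjusted p = 0.0602).

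Among the enzymes, PCK2 (ENSG00000100889), the mitochondrial phosphoenolpyruvate carboxykinase, showed the largest difference. It held 22.3, 16.3, 15.9 and 16.7 CPM with T-REX and 10.4, 11.2, 7.53 and 11.2 CPM with DMSO (0.82, standard error 0.14, edgeR adjusted p = 0.000652). All 4 T-REX libraries were above all 4 DMSO libraries, T-REX replicate 1 by most. ALDH1L2 (ENSG00000136010), a mitochondrial 10-formyltetrahydrofolate dehydrogenase, held 87.7, 83.9, 80.9 and 65.5 CPM with T-REX and 46.9, 56.2, 54.6 and 54.2 CPM with DMSO. T-REX replicate 4 was the lowest of its arm and still above every DMSO library (0.59, standard error 0.075, edgeR adjusted p = 3.23e-05). CTH, which makes cysteine from cystathionine, held 62.3, 53.1, 54.1 and 58.5 CPM with T-REX and 32.4, 37.3, 33.7 and 48.3 CPM with DMSO. Its call (0.59, edgeR adjusted p = 0.00282) was lost without DMSO replicates 1 and 3 (0.41, edgeR adjusted p = 0.117). In serine synthesis the log2 fold changes were 0.37 for PHGDH and 0.22 for PSAT1, and in the mitochondrial folate path they were 0.35 for MTHFD1L and 0.21 for MTHFD2. PSAT1 and MTHFD2 were the weaker calls (edgeR adjusted p = 0.0414 and 0.0325), and each was lost in several fits that left out 1 library, both of them without T-REX replicate 1 (0.134 and 0.120), T-REX replicate 2 (0.111 and 0.104), DMSO replicate 1 (0.0656 and 0.0762) or DMSO replicate 2 (0.125 and 0.0852), and PSAT1 also without T-REX replicate 4 or DMSO replicate 4 (0.0597 and 0.0811) or light alone replicate 1, 2 or 4 (0.0514 to 0.0533).

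ASNS, the asparagine synthetase that is a classical ATF4 target, was not called (0.33, edgeR adjusted p = 0.178), with 8.53 to 11.1 CPM under T-REX and 5.26 to 10.9 CPM under DMSO. Without DMSO replicate 3 it was called (0.53, edgeR adjusted p = 0.0155). ASNSP1 (ENSG00000248498), a pseudogene of ASNS, held 14.5, 16.2, 13.1 and 15.7 CPM with T-REX and 6.22, 7.50, 8.08 and 11.1 CPM with DMSO (0.85, edgeR adjusted p = 0.000273). How reads that match both were shared out is not given in the sources used here, so that the values of ASNS and ASNSP1 are uncertain.

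Of the regulators, ATF4 (ENSG00000128272) itself held 391, 385, 364 and 400.5 CPM with T-REX and 337, 321, 279.8 and 328 CPM with DMSO, a shift of 0.28 without overlap (standard error 0.053, edgeR adjusted p = 0.00129). Its partner CEBPG shifted by 0.27 (edgeR adjusted p = 0.00296). NIBAN1, a gene raised by stress, held 6.96, 5.58, 4.60 and 5.75 CPM with T-REX and 2.03, 3.77, 3.39 and 3.88 CPM with DMSO (0.81, edgeR adjusted p = 0.00744). JDP2, a repressor that binds with other bZIP factors, differed by 0.79 at a low level (3.75 to 5.61 against 2.23 to 3.63 CPM). PPP1R15A, which directs the dephosphorylation of eIF2, differed by 0.54 with an edgeR adjusted p of 0.0485, and this call was lost in 14 of the 25 alternatives, among them each fit without 1 T-REX library (0.0602 to 0.117) and those without DMSO replicate 1 or 2 (0.0592 and 0.0723) or without any of replicates 1 to 3 of light alone or probe alone (0.0531 to 0.0634). Without DMSO replicate 3 PPP1R15A differed by 0.36. SESN2, a sestrin that restrains mTORC1, differed by 0.47 and was not called without DMSO replicate 1, 2 or 3 or T-REX replicate 1 or 4 (edgeR adjusted p from 0.0515 to 0.108). Of the eIF2 kinases, EIF2AK3 was higher (0.24, edgeR adjusted p = 0.0163, and 0.0593 without T-REX replicate 1), while EIF2AK1 was lower, at 234, 271, 247 and 256 CPM against 302, 305, 374 and 290.0 CPM (-0.33, edgeR adjusted p = 0.00145). The death-linked members DDIT3 and CHAC1 were not called (-0.02 and 0.27, edgeR adjusted p = 0.964 and 0.427).

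Among the cytosolic aminoacyl-tRNA synthetases, which charge tRNAs with their amino acids, GARS1 (ENSG00000106105, glycine) held 256, 238, 226 and 234 CPM with T-REX and 184, 189, 172 and 187 CPM with DMSO. The arms were apart by 0.38 (standard error 0.052, edgeR adjusted p = 6.45e-05). YARS1 (tyrosine) held 195, 176, 177 and 188 CPM with T-REX against 142, 132, 104 and 158 CPM with DMSO (0.46, edgeR adjusted p = 0.00208), and MARS1 (methionine) held 129 to 132 CPM against 97.0 to 114 CPM (0.27, edgeR adjusted p = 0.00183). RARS1 (arginine), a member of the multi-synthetase complex, was lower (-0.23, edgeR adjusted p = 0.0116). The synthetases therefore did not move as a block, and 10 of 20 were not called.

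ATF4 pairs with C/EBP proteins on a composite site, searched here as TGATGNAA on both strands of RefSeq promoters, each of 300 bases from 250 before to 50 after the annotated start (GRCh38.p14). The letters were found in 3.67% of the 27305 promoters of the table and in 1.61% of the 10447 genes tested that have one. They were found in 3 of 11 transporter promoters, in 6 of 16 cytosolic synthetase promoters, in 3 of 12 synthesis gene promoters and in 2 of 20 promoters of the regulators, so that most members of each list lacked them. Among called members they were found in 3 of 6 transporters (SLC3A2, SLC38A1 and SLC7A1), 4 of 8 synthetases, 1 of 6 synthesis genes (MTHFD1L) and 0 of 7 regulators. Over all genes with a promoter, 16 of 430 called higher (3.72%) and 9 of 785 called lower (1.15%) held a match. A match is a description of the letters and not a site shown to be bound. The stretches around the match in 5 genes called higher are printed 5′ to 3′ on the strand of the gene with the motif in capitals, to show the letters in a synthesis gene, a transporter and synthetases that hold them, and TTGCATCA is the motif read on the other strand. They lie at chr16:70289656-70289723, minus strand (AARS1), chr11:3057388-3057455, minus strand (CARS1), chr12:57488034-57488101, plus strand (MARS1), chr6:150866327-150866394, plus strand (MTHFD1L) and chr13:29595644-29595711, minus strand (SLC7A1).
AARS1: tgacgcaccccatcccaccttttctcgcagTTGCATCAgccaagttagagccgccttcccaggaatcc
CARS1: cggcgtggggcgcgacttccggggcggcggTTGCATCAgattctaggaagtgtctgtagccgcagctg
MARS1: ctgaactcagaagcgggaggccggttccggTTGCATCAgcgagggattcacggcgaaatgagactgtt
MTHFD1L: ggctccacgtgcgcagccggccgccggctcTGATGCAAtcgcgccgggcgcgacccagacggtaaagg
SLC7A1: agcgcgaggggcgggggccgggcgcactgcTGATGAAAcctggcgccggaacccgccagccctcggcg
AARS1, CARS1 and MARS1 hold the same 8 letters in the same orientation, and the log2 fold changes of these genes were 0.29, 0.39 and 0.27. AARS1 was not called without T-REX replicate 1 (edgeR adjusted p = 0.0503).

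**Figure D2:**
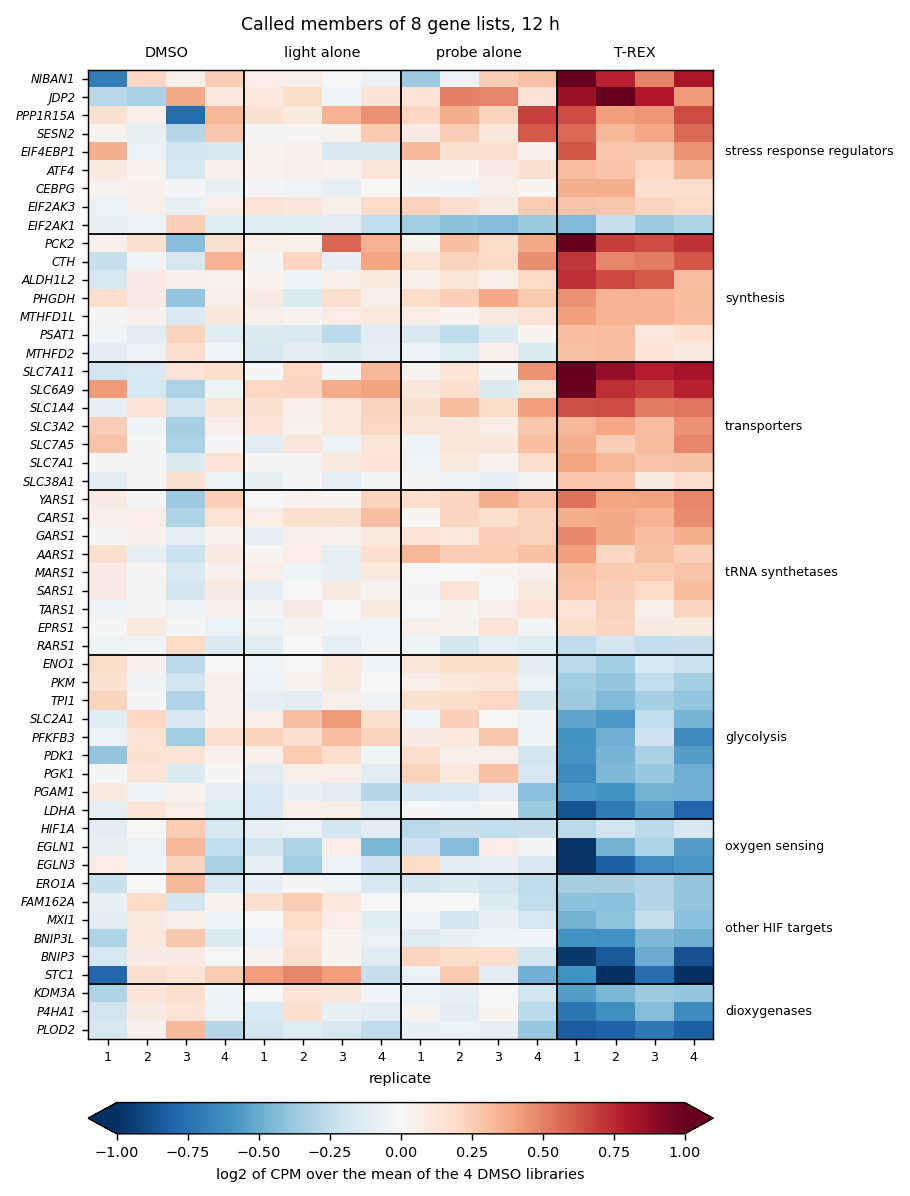
Called members of 8 gene lists (rows, 53 genes, with some members not shown) in each of the 16 libraries of 12 h (columns, 4 replicates per arm), coloured by the log2 of CPM over the mean of the 4 DMSO libraries. The transporter and synthesis rows are red in the T-REX columns and the hypoxia rows blue, while DMSO replicate 3 departs from the other DMSO columns in many rows.

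Of 28 genes of endoplasmic reticulum stress, the response to misfolded protein in the secretory path, 5 were higher and 1 lower (median 0.07). XBP1 (ENSG00000100219), the transcription factor activated by IRE1 splicing, held 73.8, 74.5, 72.7 and 73.4 CPM with T-REX and 52.6, 54.3, 56.3 and 57.8 CPM with DMSO. The T-REX libraries lay close together and above every DMSO library (0.41, standard error 0.059, edgeR adjusted p = 9.83e-05), and the call held in 25 of 25 alternatives. CREB3L2, a membrane-bound factor of the secretory path, had 0.28 (edgeR adjusted p = 0.0031). ERN1, which encodes IRE1, had 0.27 and was not called without DMSO replicate 3 or T-REX replicate 1, 3 or 4 (edgeR adjusted p from 0.0518 to 0.150). PDIA6, a disulphide isomerase, was the lower one (-0.22, edgeR adjusted p = 0.00925). In the COPII coat, which buds vesicles from the endoplasmic reticulum, SEC24D was higher (0.27, edgeR adjusted p = 0.00406) among 2 higher and 1 lower of 11 genes, with 1 higher without DMSO replicate 2 or 3 or T-REX replicate 1, 3 or 4. Without DMSO replicates 1 and 3, 3 genes of the endoplasmic reticulum list were higher and 0 lower, in a fit of these 2 arms alone 1 and 0, and without T-REX replicate 1 the count of higher genes was 2. XBP1P1, a pseudogene of XBP1 that was picked after its values were seen, was also higher at a very low level (1.32 to 2.17 CPM against 0.628 to 0.928 CPM, edgeR adjusted p = 0.00705), and reads of the parent gene that map to it cannot be told apart from its own.

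Of the genes that HIF raises, 0 were called higher with T-REX and fewer than 1 in 2 of each list were called lower. Of 23 genes of glucose uptake and glycolysis, 0 were higher and 9 lower, with a median log2 fold change of -0.33 and 21 values below 0. Of 17 other HIF targets, 0 were higher and 6 lower, and all 17 values were below 0 (median -0.34). Of 8 genes of oxygen sensing, 3 were lower, while the median was -0.07, and 2 were higher without DMSO replicate 4. Without DMSO replicates 1 and 3 the counts of lower genes in these 3 lists were 11, 9 and 1, and in a fit of these 2 arms alone 7, 4 and 1. When 1 of the 8 libraries was left out, they ran from 8 to 11 in glycolysis and from 6 to 8 in the other targets, while that of oxygen sensing was 1 without DMSO replicate 3 or T-REX replicate 1.

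LDHA (ENSG00000134333) turns pyruvate into lactate at the end of glycolysis. It stood at 348, 388, 434 and 366 CPM in T-REX replicates 1 to 4 and at 596, 693, 668 and 579 CPM in the DMSO replicates. The highest T-REX library was below the lowest DMSO library, and the log2 fold change was -0.72 (standard error 0.084, edgeR adjusted p = 3.41e-05). PGK1 (ENSG00000102144), the phosphoglycerate kinase, held 154, 175, 184 and 170.4 CPM with T-REX and 236, 261, 217 and 241 CPM with DMSO, again without overlap (-0.49, standard error 0.080, edgeR adjusted p = 0.000626). PGAM1, the mutase of the next step, held 72.6, 71.1, 77.8 and 77.3 CPM against 116, 105, 110.0 and 101 CPM (-0.53, edgeR adjusted p = 2.15e-05). LDHA, PGK1 and PGAM1 were called in 25 of 25 alternatives. SLC2A1, the glucose transporter GLUT1, differed by -0.45 (edgeR adjusted p = 0.00339) and PFKFB3, which sets the activator of phosphofructokinase, by -0.48 (edgeR adjusted p = 0.00427). TPI1 and PKM differed by -0.38 and -0.33. PDK1, a kinase that inhibits pyruvate dehydrogenase, had overlapping arms (96.0 to 115 CPM against 109.6 to 159.7 CPM) and a log2 fold change of -0.48, and was not called without DMSO replicate 3 (edgeR adjusted p = 0.0574). ENO1 was the weakest of the 9 calls (-0.25, edgeR adjusted p = 0.0335) and went away without DMSO replicate 1 or 2, T-REX replicate 1, 2 or 4, or probe alone replicate 1 (edgeR adjusted p from 0.0502 to 0.0945).

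BNIP3 (ENSG00000176171) and BNIP3L (ENSG00000104765) are receptors on the mitochondrial surface that mark mitochondria for autophagy. BNIP3 held 32.5, 35.4, 45.0 and 34.6 CPM with T-REX and 56.1, 67.2, 67.0 and 63.2 CPM with DMSO. T-REX replicate 3 was the highest of its arm and below every DMSO library (-0.78, standard error 0.097, edgeR adjusted p = 3.41e-05). BNIP3L held 119, 118, 131 and 129 CPM against 145, 193, 216 and 163 CPM (-0.53, edgeR adjusted p = 0.000567). STC1, a secreted glycoprotein, showed the largest log2 fold change among the called genes of the list, -1.06 (edgeR adjusted p = 0.00768), at a low level. Its arms overlapped, with 3.74, 1.84, 3.35 and 1.94 CPM with T-REX and 3.30, 6.38, 6.24 and 6.79 CPM with DMSO, and DMSO replicate 1 stood below the others. MXI1, an antagonist of MYC, and FAM162A, a mitochondrial protein, differed by -0.38 and -0.38. ERO1A, an oxidase of the endoplasmic reticulum, differed by -0.34, and by -0.21 without DMSO replicate 3. VEGFA, the vascular growth factor, was not called (-0.10, edgeR adjusted p = 0.394), but was without DMSO replicates 1 and 3 (-0.27, edgeR adjusted p = 0.0114). MIF, a cytokine, was not called either (-1.08, edgeR adjusted p = 0.0603), and its DMSO libraries were spread widely (10.5 ± 5.94 CPM, mean ± SD, n = 4). MIF was called in 6 of 25 alternatives, among them DESeq2 (adjusted p = 0.0298) and the fits without DMSO replicate 2 or 4 (-1.21 and -1.33, edgeR adjusted p = 0.0471 and 0.00238), while without DMSO replicate 1 its log2 fold change was -0.68 and without DMSO replicates 1 and 3 it was -0.25 (edgeR adjusted p = 0.692).

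EGLN3 (ENSG00000129521), a prolyl hydroxylase that HIF itself raises, held 8.77, 9.77, 11.2 and 11.5 CPM with T-REX and 18.1, 16.8, 20.1 and 13.7 CPM with DMSO. The arms were apart by -0.74 (standard error 0.12, edgeR adjusted p = 0.000357). EGLN1 held 3.50 to 5.52 CPM against 5.78 to 8.58 CPM and was called less firmly (-0.56, edgeR adjusted p = 0.0284), with no call without DMSO replicate 3 or T-REX replicate 1 or 4 (0.0909, 0.119 and 0.0614). HIF1A had overlapping arms and -0.22, and was not called without DMSO replicate 2 or 3 or T-REX replicate 1 or 3 (0.0505 to 0.0819). Without DMSO replicate 3 the log2 fold change of HIF1A was -0.13. Of 19 genes listed under 2-oxoglutarate dioxygenases, which are collagen hydroxylases with their subunit P4HB and histone demethylases, 3 were lower and 0 higher, while the median of the 19 was 0.06. They were PLOD2 (ENSG00000152952), a lysyl hydroxylase of collagen, P4HA1 (ENSG00000122884), a subunit of collagen prolyl hydroxylase, and KDM3A, a histone demethylase, which are also known HIF targets. PLOD2 held 92.0, 93.5, 99.7 and 93.1 CPM with T-REX and 147, 169, 205 and 135 CPM with DMSO (-0.79, standard error 0.095, edgeR adjusted p = 5.83e-05). P4HA1 held 39.9, 43.3, 48.9 and 42.7 CPM against 57.5, 70.0, 72.8 and 63.9 CPM (-0.60, edgeR adjusted p = 9.83e-05), and KDM3A 148 to 169 CPM against 174 to 244 CPM (-0.44, edgeR adjusted p = 0.000995). No arm overlapped in these 3 genes, and all were called in 25 of 25 alternatives.

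HIF recognizes the core ACGTG, which was found on either strand in 21.6% of all promoters of the table and in 26.9% of those of genes tested. Of all genes called lower, 29.9% held it. Of the 16 promoters of hypoxia genes called lower, 6 held it (37.5%). In the glycolysis list 9 of 22 promoters held it, and 2 of 9 of the called members (22.2%). In the other HIF targets 10 of 13 held it (76.9%), and 3 of 4 of the called members, and in oxygen sensing 2 of 7, and 1 of 3 of the called members. In the list of 2-oxoglutarate dioxygenases, which includes P4HA1 and PLOD2, 6 of 18 held it, and 2 of 3 of the called members. As CACGTG reads as the core on both strands, such a stretch counts as 2 matches. For print, 4 genes called lower were picked among those with a match and a firm call. Called genes without a match, such as PGAM1, are therefore not shown. Stretches around the matches of the 4 genes are printed 5′ to 3′ on the strand of the gene, with the core in capitals. They lie at chr11:18394348-18394524, plus strand (LDHA), chr10:131982022-131982087, minus strand (BNIP3), chr10:73096918-73096982, minus strand (P4HA1) and chr3:146161296-146161414, minus strand (PLOD2).
LDHA: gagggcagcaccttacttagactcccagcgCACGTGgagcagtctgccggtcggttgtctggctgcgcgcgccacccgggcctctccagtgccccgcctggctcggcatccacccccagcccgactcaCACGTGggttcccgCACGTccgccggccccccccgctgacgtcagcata
BNIP3: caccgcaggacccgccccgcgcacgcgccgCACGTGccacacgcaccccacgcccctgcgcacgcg
P4HA1: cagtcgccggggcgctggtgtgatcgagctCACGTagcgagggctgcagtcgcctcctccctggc
PLOD2: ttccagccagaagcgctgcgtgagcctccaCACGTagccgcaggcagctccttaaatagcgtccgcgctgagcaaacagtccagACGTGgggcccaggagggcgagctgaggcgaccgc
LDHA held 5 matches in this count, PLOD2 and BNIP3 2 each and P4HA1 1. That a promoter has no match says only that these letters are not in this window.

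TXNIP (ENSG00000265972) binds thioredoxin and limits glucose uptake, and it and its relative ARRDC4 are raised by MondoA when sugar phosphates build up. TXNIP held 22.2, 22.9, 26.3 and 24.4 CPM in the T-REX replicates and 56.2, 38.9, 45.4 and 43.0 CPM in the DMSO replicates. All 4 T-REX libraries were below all 4 DMSO libraries (-0.94, standard error 0.099, edgeR adjusted p = 3.2e-06). ARRDC4 (ENSG00000140450) held 25.7, 23.7, 25.5 and 22.3 CPM with T-REX and 41.1, 41.8, 46.2 and 41.1 CPM with DMSO (-0.81, standard error 0.074, edgeR adjusted p = 3.83e-07). ARRDC3, an arrestin relative with other inputs, went the other way, at 201, 176, 179 and 206 CPM against 108, 131, 153 and 134 CPM (0.54, edgeR adjusted p = 0.00406), a call lost without DMSO replicates 1 and 3 (0.53, edgeR adjusted p = 0.0525). TXNIP and ARRDC4 were called in 25 of 25 alternatives.

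Electrophiles are sensed by KEAP1, which then frees NRF2 to raise detoxifying and antioxidant genes. Of 22 measured NRF2 genes, 3 were higher and 2 lower (22.7% called, beside 10.9% of all genes tested), and the median was 0.02. HMOX1 (ENSG00000100292), the haem oxygenase, held 23.4, 23.1, 27.4 and 27.5 CPM with T-REX and 16.5, 15.8, 12.4 and 17.5 CPM with DMSO, without overlap (0.70, standard error 0.14, edgeR adjusted p = 0.00207). Without DMSO replicates 1 and 3 it was not called (0.61, edgeR adjusted p = 0.0563). MAFG, the small partner of NRF2, and FTH1, a ferritin chain, differed by 0.34 and 0.21, and both calls were lost when 1 library was left out (MAFG without T-REX replicate 4, edgeR adjusted p = 0.0679, and FTH1 without T-REX replicate 1, 2 or 3, 0.0610 to 0.0640). The lower members were TXN, thioredoxin (-0.43, edgeR adjusted p = 0.0118, and 0.0930 without DMSO replicate 3), and PRDX1, a peroxidase (-0.25, edgeR adjusted p = 0.0109, and 0.0509 without T-REX replicate 1). NQO1 and GCLM, among the best known NRF2 targets, were not called (0.18 and 0.15, edgeR adjusted p = 0.536 and 0.25). GCLM was called without DMSO replicate 3 (0.26, edgeR adjusted p = 0.0111), without DMSO replicates 1 and 3 (0.27, edgeR adjusted p = 0.0285) and with the deposited factors of unwanted variation as covariates (edgeR adjusted p = 0.0348). Among 18 heat shock genes 0 were higher and 2 were lower (11.1%, beside 6.79% lower of all genes tested). The lower genes numbered 9 without DMSO replicate 4 and 1 without DMSO replicate 1 or T-REX replicate 1, 3 or 4. HSPA8, the constitutive HSP70, had -0.29 (edgeR adjusted p = 0.00219). HSPD1, the mitochondrial HSP60, had -0.21 (edgeR adjusted p = 0.0242) and was not called without DMSO replicate 1 or 2 or T-REX replicate 1, 3 or 4 (edgeR adjusted p from 0.0571 to 0.0752). HSPA6, a strictly inducible HSP70 outside the list that was picked after its values were seen, had the largest log2 fold change of all higher genes, 1.65 (standard error 0.35, edgeR adjusted p = 0.00543), at 4.41, 2.84, 4.79 and 6.25 CPM with T-REX and 2.47, 1.22, 0.507 and 1.58 CPM with DMSO. The arms of HSPA6 did not overlap, and it was called in all 24 alternatives that kept it. Among 20 p53 targets 3 were higher (1 without T-REX replicate 1, 5 without DMSO replicate 1 or DMSO replicate 4), led by TP53I3, an oxidoreductase, at 23.4, 17.4, 21.6 and 22.7 CPM against 14.1, 13.3, 8.27 and 16.1 CPM (0.71, edgeR adjusted p = 0.00465). XPC, a DNA repair gene, was a weaker call, at 0.25 (not called without DMSO replicate 2 or 3 or T-REX replicate 1, 3 or 4, edgeR adjusted p from 0.0550 to 0.0885). In the BCL2 family 1 gene of 13 was called (7.69%, below the 10.9% of all genes tested). It was HRK, which encodes a protein that binds and opposes BCL2 survival factors, at 29.6 ± 1.82 CPM with T-REX and 21.6 ± 2.67 CPM with DMSO (mean ± SD, n = 4, log2 fold change 0.46, edgeR adjusted p = 0.00236).

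Of 20 developmental transcription factors, 0 were higher and 9 lower (median -0.27), and 9 were lower without DMSO replicates 1 and 3 and 7 in a fit of these 2 arms alone. RARB (ENSG00000077092), a retinoic acid receptor, had the smallest p of all genes. It held 21.6, 18.9, 23.1 and 23.1 CPM with T-REX and 38.8, 43.9, 51.4 and 42.0 CPM with DMSO (-1.02, standard error 0.086, edgeR adjusted p = 1.22e-07). The light alone libraries were close to T-REX, at 26.1, 26.2, 27.8 and 25.9 CPM, and probe alone was above DMSO, at 49.3, 59.8, 49.8 and 52.3 CPM. POU3F2 (ENSG00000184486), a neural POU factor, held 68.3, 75.6, 69.6 and 65.9 CPM with T-REX and 106, 116, 144 and 101 CPM with DMSO (-0.74, standard error 0.076, edgeR adjusted p = 2.07e-06), and DMSO replicate 3 was the highest of the latter. SOX4 and HOXA10 differed by -0.54 and -0.50 (edgeR adjusted p = 0.0011 and 0.000498), and DACH1 by -0.34 (edgeR adjusted p = 0.00125). SP9, a zinc finger factor outside the list, differed by -1.07 at a low level (4.92 to 6.47 CPM against 8.73 to 17.6 CPM).

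Of 16 genes of BMP and TGF beta signalling, 4 were lower and 0 higher, also without DMSO replicates 1 and 3 and in a fit of these 2 arms alone. They were the ligands BMP4 (ENSG00000125378) and BMP2, the inhibitory SMAD6 and the target ID2. BMP4 held 16.9, 19.6, 21.1 and 19.3 CPM with T-REX and 26.0, 30.6, 36.6 and 25.9 CPM with DMSO (-0.63, standard error 0.10, edgeR adjusted p = 0.000394). SMAD6 held 13.5 to 18.1 CPM against 23.5 to 29.2 CPM (-0.72, edgeR adjusted p = 6.45e-05), and ID2 107 to 115 CPM against 139 to 150.3 CPM (-0.37, edgeR adjusted p = 0.000251). BMP2 was low in both arms, at 2.07 to 2.39 CPM against 3.65 to 4.02 CPM (-0.81, edgeR adjusted p = 0.004). Of 23 genes between receptors and the nucleus, 6 were lower and 3 higher. CXCR4 (ENSG00000121966), the receptor of the chemokine CXCL12, held 10.8, 13.3, 13.3 and 12.3 CPM with T-REX and 23.6, 29.3, 30.8 and 23.0 CPM with DMSO, without overlap (-1.10, standard error 0.11, edgeR adjusted p = 7e-07). MAP2K6, a kinase that activates p38, held 33.9, 38.8, 35.9 and 31.5 CPM against 48.9, 55.4, 56.8 and 49.2 CPM (-0.59, edgeR adjusted p = 5.95e-05). IGFBP5, a binding protein of insulin-like growth factors, held 39.0 to 44.2 CPM against 53.7 to 62.5 CPM (-0.51, edgeR adjusted p = 0.000263). CXCR4, MAP2K6, IGFBP5, BMP4, SMAD6 and POU3F2 were called in 25 of 25 alternatives.

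Several of the genes with the smallest p belong to none of the lists. TFRC (ENSG00000072274), the transferrin receptor that brings iron into the cell, held 262, 284, 279 and 275 CPM with T-REX and 408, 432, 464 and 370.4 CPM with DMSO (-0.61, standard error 0.059, edgeR adjusted p = 7e-07). PAICS, an enzyme of purine synthesis, differed by -0.46 (edgeR adjusted p = 1.37e-05), PCDH10, a protocadherin, by -0.51 (edgeR adjusted p = 1.04e-05) and KCTD12, an auxiliary subunit of GABA B receptors, by -0.62 (edgeR adjusted p = 1.45e-05). PCLO (ENSG00000186472), a presynaptic scaffold, had the smallest p of the higher genes, at 179, 173, 179 and 162 CPM against 105, 119, 112 and 127 CPM (0.58, standard error 0.059, edgeR adjusted p = 1.1e-06). LAMA3, a laminin chain, and LPIN1, a phosphatidate phosphatase, were higher by 0.44 and 0.40 (edgeR adjusted p = 2.15e-05 and 0.000255). CAPN5, a calpain protease, was higher by 1.03, at 4.06 to 7.42 CPM against 2.34 to 3.62 CPM (edgeR adjusted p = 0.000893).

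SR and hnRNP proteins choose splice sites. Of 26 measured, 13 were lower and 0 higher, with a median of -0.15 and 22 values below 0. The count was 5 without DMSO replicates 1 and 3, 3 in a fit of these 2 arms alone, 6 without T-REX replicate 1, 3 or 4 and 7 without DMSO replicate 3. SRSF2 (ENSG00000161547) held 153, 157, 141 and 155 CPM with T-REX and 200.4, 206, 249 and 186 CPM with DMSO (-0.47, standard error 0.066, edgeR adjusted p = 8.63e-05), and its call held in 25 of 25 alternatives. SRSF9 was likewise called in 25 of 25 (-0.26, edgeR adjusted p = 0.00336). PTBP1, QKI and SRSF5 had overlapping arms or weak calls (-0.28, -0.24 and -0.33, edgeR adjusted p = 0.0499, 0.0295 and 0.0395), and without DMSO replicate 3 none of them was called (0.204, 0.0630 and 0.138), nor without T-REX replicate 1, 3 or 4 (0.0558 to 0.136), and PTBP1 and SRSF5 were also lost without DMSO replicate 1 (0.121 and 0.0645), PTBP1 without T-REX replicate 2 (0.107), without light alone replicate 1, 2 or 3 (0.0557 to 0.0606) and without probe alone replicate 2, 3 or 4 (0.0602 to 0.0673), and SRSF5 without DMSO replicate 2 (0.0660). The log2 fold changes of QKI and SRSF5 were -0.12 and -0.20 without DMSO replicate 3, and that of PTBP1 was -0.17 without DMSO replicate 1. Of 37 spliceosomal snRNP proteins, 6 were lower and 1 higher, with 1 lower without T-REX replicate 3 and 0 higher without DMSO replicate 2 or any 1 T-REX replicate. SNRPD3, a core Sm protein, held 87.2 to 92.0 CPM against 104 to 117 CPM (-0.29, edgeR adjusted p = 0.00118). Of 15 factors of nonsense-mediated decay, 1 was higher and 1 lower (0 higher without DMSO replicate 2 or 3 or any 1 T-REX replicate, 2 and 2 without DMSO replicate 4). That is 13.3% called, near the 10.9% of all genes tested. Of 34 translation initiation factors 2 were higher (1 without T-REX replicate 2 or 3) and 5 lower (3 without T-REX replicate 1 or 3), with EIF4G2 at -0.29 (edgeR adjusted p = 0.000226).

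The study followed the splicing of several transcripts, which counts per gene do not resolve. At the level of the gene, RPS6KB1, which encodes the kinase S6K1, had a log2 fold change of -0.07 (edgeR adjusted p = 0.464), THOC7 -0.09 (edgeR adjusted p = 0.565), SF3A1 -0.01 (edgeR adjusted p = 0.96) and MYBL2 0.21 (edgeR adjusted p = 0.17). None of these 4 was called, and 3957 genes of the same comparison had an unadjusted p up to 0.05. MYBL2 was called without DMSO replicate 1 (0.31, edgeR adjusted p = 0.0243). EIF4EBP1, a translation repressor, was higher by 0.41, with 20.9 to 26.5 CPM against 15.2 to 22.2 CPM, and was not called without DMSO replicate 2 or T-REX replicate 1 (edgeR adjusted p = 0.0504 and 0.0890). SESN3, another sestrin, was lower (-0.38, edgeR adjusted p = 0.00148), so that the sestrins SESN2 and SESN3 stood on opposite sides.

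Of 18 cyclins, kinases and inhibitors of G1, 7 were lower and 0 higher (median -0.18), 4 without DMSO replicates 1 and 3, 4 without DMSO replicate 3 and 2 in a fit of these 2 arms alone. CCND1, cyclin D1, held 9.44, 8.49, 8.39 and 9.33 CPM with T-REX and 11.8, 13.4, 10.9 and 12.6 CPM with DMSO (-0.45, edgeR adjusted p = 0.0122). CDKN2C, an inhibitor of CDK4 and CDK6, and E2F3 differed by -0.45 and -0.30. Of 24 genes of mitosis, 26 of DNA replication and 31 of the proteasome, 3, 2 and 5 were lower (12.5%, 7.69% and 16.1%) and 0 higher. Over all genes tested 6.79% were lower and 4.09% higher, so that the share in DNA replication was near that of all genes. When 1 of the 8 libraries was left out, the lower genes numbered 2 to 5 in mitosis (2 without T-REX replicate 1 or 3, 5 without DMSO replicate 1 or 4), 0 to 4 in replication (0 without DMSO replicate 2 or T-REX replicate 1 or 3, 4 without DMSO replicate 3 or 4) and 3 to 8 in the proteasome (3 without T-REX replicate 1, 3 or 4, 8 without DMSO replicate 4). Of 22 sterol genes 3 were higher, and 1 without T-REX replicate 1, 2 or 3. Of 10 fatty acid genes 1 was lower, against 0 without DMSO replicate 2 or T-REX replicate 1, 3 or 4 and 3 without DMSO replicate 4. Of 20 immediate early genes 1, JUND, was lower (4 genes without DMSO replicate 4), and 0 of the 6 measured interferon genes were called (1 without DMSO replicate 4). JUND had overlapping arms and was not called without DMSO replicate 1 or 3 or T-REX replicate 1 or 3 (edgeR adjusted p from 0.0571 to 0.100).

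Several lists changed size with the DMSO libraries. Of 42 replication-dependent histone genes, 13 were lower and 0 higher (median -0.46), while 3 were lower without DMSO replicates 1 and 3 (median -0.21), 2 in a fit of these 2 arms alone, 5 without T-REX replicate 1 and 26 without DMSO replicate 4. H3C12 held 7.34, 7.93, 13.2 and 13.4 CPM with T-REX and 56.4, 25.6, 56.5 and 14.2 CPM with DMSO (-1.87, edgeR adjusted p = 0.0123). DMSO replicates 1 and 3 stood far above DMSO replicates 2 and 4, and without them the log2 fold change was -0.93 (edgeR adjusted p = 0.159). Summed over the list, the CPM ran from 1255 to 1529 with T-REX and from 1444 to 2624 with DMSO. Histone genes are near-identical copies, and how reads shared among them were counted is not given in the sources used here. RPS15, a ribosomal protein, followed the same libraries, at 339, 196, 375 and 155 CPM with DMSO and 133, 128, 168 and 158 CPM with T-REX (-0.86, edgeR adjusted p = 0.0368), and was not called without DMSO replicate 1 or 3, any 1 T-REX replicate, light alone replicate 1 or probe alone replicate 2 (edgeR adjusted p from 0.0506 to 0.102). Of 82 cytosolic ribosomal protein genes 6 were lower (7.32%, near the 6.79% of all genes tested), and 0 without DMSO replicates 1 and 3, 2 without T-REX replicate 1 and 14 without DMSO replicate 4.

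For the respiratory chain, 16 of 78 nuclear genes were lower and 0 higher (median -0.15), against 7 without DMSO replicates 1 and 3 and 7 in a fit of these 2 arms alone. Of 74 mitochondrial ribosomal protein genes 10 were lower, against 3 and 2. Of 13 genes of the mitochondrial genome 5 were lower, against 2 and 2. These 3 counts were 27, 17 and 10 without DMSO replicate 4, but 10, 5 and 2 without T-REX replicate 1. MT-CO3, a subunit of complex IV, held 5838, 6723, 6394 and 5979.6 CPM with T-REX and 9181, 8478, 9796 and 7206 CPM with DMSO (-0.48, edgeR adjusted p = 0.000266). The mitochondrial genome gave 7.66 to 8.66% of the counts of the T-REX libraries and 8.36 to 9.80% of those of the DMSO libraries. Lower genes also had a lower GC content, with a median of 43.6% against 47.9% for higher genes and 47.2% for genes not called. Over 12568 genes Spearman's rho of the log2 fold change with GC was 0.171, a description across genes that are not independent. It was -0.074 without DMSO replicate 3 and 0.365 without DMSO replicate 1. Without both of these libraries it was again 0.171, so that the counts without DMSO replicates 1 and 3 are not free of this trend.

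The other arms of 12 h show how the same genes stood with probe or light. These comparisons share libraries with T-REX against DMSO and with each other, so that their values are set side by side without a test of their likeness. T-REX against light alone called 189 genes (1.29%) and T-REX against probe alone 103 (0.701%). Probe alone against DMSO called 751 genes (5.11%), and light alone against DMSO 2 (0.0136%), RARB and TIPARP. For the 601 genes called higher against DMSO, the median log2 fold change was 0.11 for T-REX minus probe alone, 0.20 for T-REX minus light alone and 0.22 for probe alone minus DMSO. For the 997 genes called lower, these medians were -0.09, -0.16 and -0.21.

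LDHA, BNIP3, PLOD2, PGK1, SLC7A11, ALDH1L2, TXNIP and CXCR4 were called against each of the other arms too. For LDHA the log2 fold change was -0.69 for T-REX minus light alone, -0.63 for T-REX minus probe alone and -0.09 for probe alone minus DMSO. BNIP3 gave -0.81, -0.89 and 0.10 in the same order, PLOD2 -0.62, -0.64 and -0.15, and PGK1 -0.47, -0.61 and 0.13. For LDHA, BNIP3, PLOD2 and PGK1 in T-REX against light alone or probe alone, the largest edgeR adjusted p was 0.00228, for PGK1 against light alone. For the glycolysis list the medians were -0.35 against light alone, -0.39 against probe alone and 0.10 for probe alone minus DMSO, and for the other HIF targets -0.40, -0.33 and 0.06. SLC7A11 had 0.77 for T-REX minus light alone and 0.73 for T-REX minus probe alone (edgeR adjusted p = 0.000958 and 0.00257), with 0.17 for probe alone minus DMSO. ALDH1L2 gave 0.55, 0.47 and 0.11. TXNIP had -0.63, -1.08 and 0.15, and CXCR4 -1.03, -0.78 and -0.33.

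Other genes called against DMSO stood at the level of probe alone. BMP4 held 16.4, 17.6, 16.7 and 18.8 CPM with probe alone, so that T-REX minus probe alone was 0.14 (edgeR adjusted p = 0.682) and probe alone minus DMSO -0.78 (edgeR adjusted p = 0.000374). SRSF2 gave -0.06 and -0.41, TP53I3 0.02 and 0.70, LAMA3 0.09 and 0.36, and EIF2AK1 0.06 and -0.39. None of these 4 was called against probe alone, where 1637 genes had an unadjusted p up to 0.05. The same pattern was seen in the medians of several lists. For T-REX minus probe alone and probe alone minus DMSO they were 0.01 and 0.18 in the p53 list and -0.01 and 0.10 in endoplasmic reticulum stress. They were 0.01 and -0.18 in BMP and TGF beta signalling and -0.01 and -0.15 in the G1 list. The amino acid transporters (0.24 and 0.05) and synthesis genes (0.20 and 0.11) went the other way, as did the glycolysis genes and other HIF targets above. The cytosolic synthetases had 0.10 and 0.01. The regulators of the integrated stress response lay between these patterns, at 0.08 and 0.08, so that the ATF4 branch did not stand apart from probe alone as a whole. T-REX and probe alone are also the arms with the highest NCBP1 level, and its part in these values was not tested. RARB was near light alone (-0.29, edgeR adjusted p = 0.105) and far from probe alone (-1.28, edgeR adjusted p = 7.51e-10). TIPARP, a target of the aryl hydrocarbon receptor, held 91.0, 86.3, 83.5 and 78.4 CPM with light alone, 65.4, 76.3, 67.6 and 69.1 CPM with T-REX, 57.6, 63.1, 58.9 and 54.7 CPM with DMSO and 54.0, 56.7, 60.6 and 62.2 CPM with probe alone, so that light alone stood above T-REX (-0.29 for T-REX minus light alone, edgeR adjusted p = 0.0174). CAPN5 also differed little from light alone (0.08, edgeR adjusted p = 0.902).

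The T-REX and DMSO arms of 3 and 6 h are separate libraries, and in 1 fit of all 48 libraries the same comparison called 1041 genes at 3 h (7.09%) and 84 at 6 h (0.572%). The difference between 12 and 3 h itself was called for 1 gene (0.00681%), TIPARP, and that between 12 and 6 h for 0 genes (0%) by edgeR, with 1631 genes up to an unadjusted p of 0.05 and 39 called by DESeq2. TIPARP was lower with T-REX at 3 h (-0.37, edgeR adjusted p = 0.00202) and higher at 12 h (0.25, edgeR adjusted p = 0.0148, and 0.0602 without T-REX replicate 2), a change of 0.62 (standard error 0.11, edgeR adjusted p = 0.00558). For the other genes no difference between times passed, and their values at the 3 times are given as they stand. Values and counts of 3 and 6 h come from the fit of 48 libraries and those of 12 h from the fit of 16, so that counts of calls are not strictly alike.

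Glycolysis genes were called at neither 3 nor 6 h (0 of 23 at each, medians -0.03 and -0.06). LDHA differed by -0.26 at 3 h, -0.07 at 6 h and -0.72 at 12 h, and the change from 6 to 12 h had an edgeR adjusted p of 0.0842. P4HA1 went from -0.07 and -0.26 to -0.60, and BNIP3 from -0.19 and -0.53 to -0.78. Of the transporters, 3 were higher at 3 h and 5 at 6 h, with SLC7A11 at 0.37, 0.80 and 0.90 and SLC6A9 at 0.15, 0.82 and 0.80. ALDH1L2 stood at 0.09, 0.42 and 0.59. XBP1 was called at all 3 times, with 0.34, 0.37 and 0.41, and so were TXNIP (-0.61, -0.88 and -0.94), ARRDC4 (-0.54, -0.57 and -0.81) and CXCR4 (-0.98, -0.64 and -1.10). Of the endoplasmic reticulum genes, 7 were higher at 3 h and 3 at 6 h. Of 24 mitosis genes, 12 were lower at 3 h, 0 at 6 h and 3 at 12 h. Histones had medians of 0.20 at 3 h, -0.40 at 6 h and -0.46 at 12 h.

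**Figure D3:**
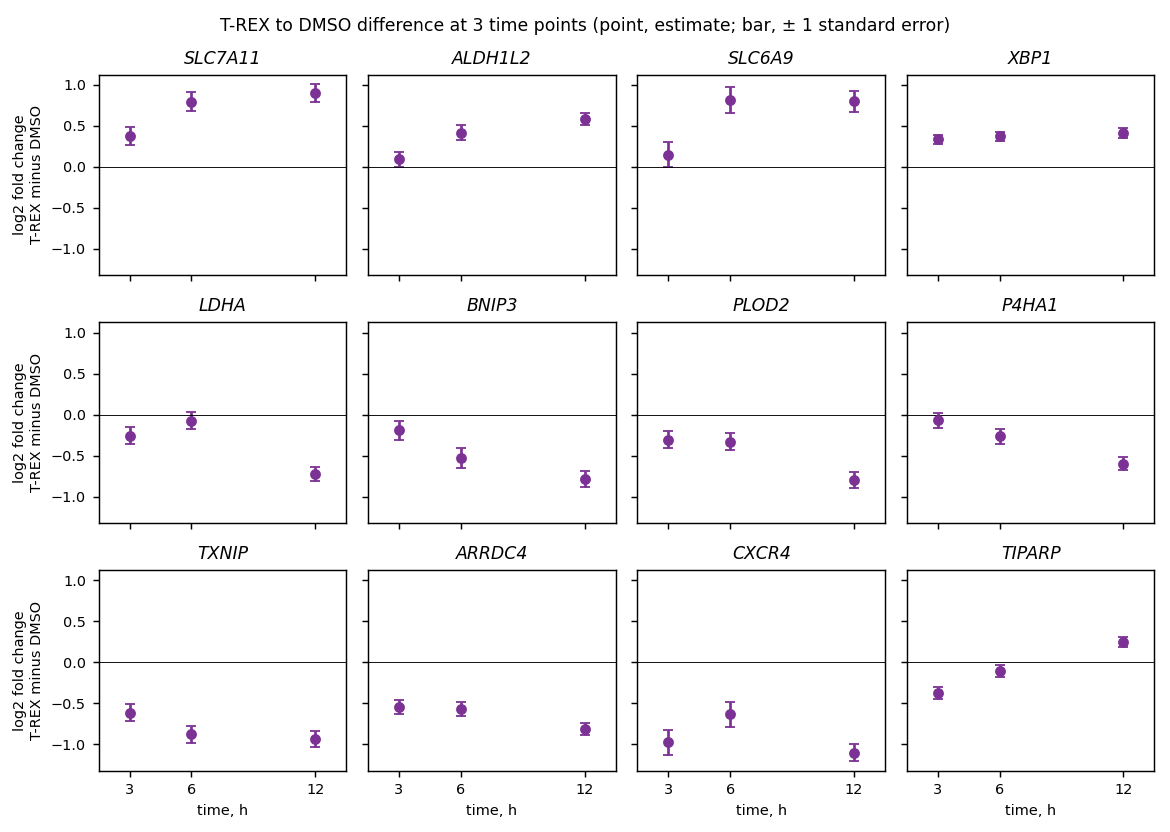
Log2 fold change of T-REX minus DMSO (vertical axis) at 3, 6 and 12 h (horizontal axis) for 12 genes, with ± 1 standard error. Values of 3 and 6 h come from the fit of 48 libraries and those of 12 h from the fit of 16. LDHA, BNIP3 and P4HA1 lie farthest from 0 at 12 h, XBP1, TXNIP and ARRDC4 are away from 0 at each time, and TIPARP crosses 0 between 3 and 12 h.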

How the data were processed

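RNA of HEK293T cells was extracted with Trizol, depleted of ribosomal RNA, made into stranded libraries and sequenced as paired ends on an Illumina instrument. The authors deposited whole-number read counts per gene, tables of log2 CPM, and scores (2 factors of unwanted variation per library), while the study's methods name cutadapt, the aligner TopHat and Cufflinks for its RNA-seq, and the step that made these counts and the genome build are not given in the sources used here. The deposited tables had been cut to a common set of genes, and a filter on low counts (filterByExpr) removed 0 more. Symbols were read from a separate list of gene names, which covered 14648 of the 14685 identifiers, and otherwise the GENCODE 29 name or the identifier was kept. Gene types, GC content and transcript lengths were read from GENCODE 29, and promoter sequences from RefSeq (GRCh38.p14).

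The counts of the 16 libraries of 12 h were fitted together in edgeR 4.0.16 (R 4.3.3) with TMM factors, robust dispersions and quasi-likelihood F tests, and 48 libraries were fitted for 3 and 6 h. The standard error is the log2 fold change over the root of F. Calls have a Benjamini-Hochberg adjusted p of at most 0.05 over all genes tested, and every edgeR adjusted p printed comes from these fits. The scripts were tested on simulated data. Depth ran from 26799819 to 37099535 counts per library. The p-values rest on a spread per gene that is estimated between replicates within arms and shared by all arms of a fit. It is not the spread of T-REX and DMSO alone. At 12 h the DMSO libraries had a larger median SD of log2 CPM (0.143) than each of the other arms, so that the shared spread can be smaller than theirs.

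The comparison, the gene lists and the rule for named genes were chosen with earlier results of these data known, and further members and HSPA6 and XBP1P1 were named after their values were seen. The rule takes NCBP1, genes the study names, the 10 called genes per direction with the largest change and the 10 with the smallest p among those with a mean of at least 100 counts and arms that do not overlap, up to 4 called members per list and direction, and 5 genes per direction for each difference between times. Alternatives were RLE factors, no filter, DESeq2 1.42.0, limma-trend (limma 3.58.1) on the deposited log2 CPM, a fit of 2 arms, the replicate number as a block, the deposited scores as covariates and each library left out in turn. The fit without a filter repeats the main fit and is still counted among the 25 alternatives. Leaving out DMSO replicates 1 and 3 together and testing only genes with a mean of at least 100 counts were added after seeing the data. A few genes are not reported here. Tables corrected by the authors for unwanted variation were not used.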

Additional observations from a re-analysis of the deposited data

Results flagged for a closer look

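In each of 76 groups of 4 libraries, the gap between an end library and its nearest neighbour was set against the range of the group, with the 95% critical value of Dixon's ratio as the limit. About 1 group in 20 passes this limit by chance, and 4 did. PCK2 stood highest in T-REX replicate 1, at 22.3 CPM, with a gap of 0.875 of the range. STC1 stood lowest in DMSO replicate 1, at 3.30 CPM, with a gap of 0.844 of the range (0.8443 unrounded). ARRDC4 and SMAD6 stood highest in DMSO replicate 3, at 46.2 and 29.2 CPM, with gaps of 0.854 and 0.844. All 4 genes were called without the library in question as well.

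The effect of T-REX against DMSO on TIPARP differed between 12 and 3 h by 0.62 on the log2 scale (edgeR adjusted p = 0.00558 for the difference). It was the 1 gene for which that difference passed the test, and TIPARP and RARB were also the 2 genes that light alone changed against DMSO at 12 h.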

How the results depend on the processing

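The fit without a filter was the main fit again, as the filter removed 0 genes, and it is no separate check. The count of 1598 called genes, 601 higher and 997 lower, stayed within 1.5 times under RLE factors, DESeq2, limma-trend, the replicate block and the higher count minimum. It moved to 636 (190 and 446) without DMSO replicates 1 and 3, to 366 (122 and 244) in the fit of T-REX and DMSO alone, where fewer libraries set the spread, and to 3925 (1824 and 2101) with the deposited factors of unwanted variation as covariates. With 1 library left out the lowest count was 795 (T-REX replicate 1 out) and the highest 2655 (DMSO replicate 4 out), with 272 to 1089 higher and 523 to 1566 lower, and it was 984 or 1016 when T-REX replicate 3 or 4 was out. The cause of these shifts was not tested. For 12 minus 3 h, DESeq2 called 28 genes, the replicate block 4, and leaving out 1 library 1 to 37 (37 without DMSO 12 h replicate 4, 11 without DMSO 3 h replicate 3, 10 and 8 without T-REX 3 h replicates 1 and 4). For 12 minus 6 h, DESeq2 called 39, the replicate block 15, and leaving out 1 library 0 to 65 (65 without DMSO 12 h replicate 4, 33 without T-REX 6 h replicate 4, 7 without DMSO 12 h replicate 1).

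The labels do not say whether libraries with the same replicate number in different arms were handled together. The deviations of same-numbered T-REX and DMSO libraries correlated at -0.34, 0.11, -0.22 and -0.05 over genes, and 0 of the T-REX libraries correlated best with their own number. As deviations also followed GC content, these values cannot settle whether the numbers mark pairs. With the replicate number as a block 1488 genes were called, 579 higher and 909 lower. Of 138 genes examined in all alternatives, 76 kept their side of the threshold in every one, 57 lost the call in at least 1 and 5 gained one in at least 1. A change of direction with a call in the main fit or in the alternative was found for 0 genes. THOC7, SF3A1 and DDIT3, which were not called, had values on both sides of 0 across the alternatives. Counts per gene do not resolve isoforms, and 4 replicates per arm limit the precision of small differences.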
